A study of Mus musculus with 16 samples.

Results

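The receptors, ligand, adaptors and feedback inhibitor through which tumor cells read leptin, adiponectin, insulin and insulin-like growth factors were followed as a set of 10 genes, Lepr, Adipor1, Adipor2, Insr, Igf1r, Igf2r, Igf1, Irs1, Irs2 and Socs3. The rule lists them by gene symbol and uses no measured value, although the list was made with earlier results of these data known. All 10 were found among the 45777 genes listed, and all 10 were among the 16209 genes tested, which had at least 1 read in every tumor.

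RNA was sequenced from B16F10 allografts, a mouse melanoma line injected under the skin of the abdominal flank of mice aged 6 weeks. The hosts were lean C57BL/6J mice or obese ob/ob mice, which make no functional leptin, and tumors were taken before therapy or after 5 intraperitoneal injections of etoposide (ETS) at 20 mg per kg, a drug that traps topoisomerase on broken DNA. There were 4 tumors per group, called here lean pre-therapy, lean ETS, obese pre-therapy and obese ETS. The labels call the tumors without ETS ctrl, and the paper describes them as pre-chemotherapy. The ETS tumors also had the days of a daily injection course, so ETS, repeated injection and time of growth cannot be told apart. All 4 groups carried the same tumor line, so the genotype differed in the host and not in the melanoma cells, and the obese host lacks leptin, so that obesity and leptin deficiency cannot be told apart. The labels number the tumors but do not say which mouse each came from, and p values measure the spread between these tumors.

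Leptin, made by fat cells, signals through LEPR and JAK2 to STAT3, and SOCS3 is induced by STAT3 and shuts the receptor down. Adiponectin, also from fat cells, binds ADIPOR1 and ADIPOR2, of which ADIPOR1 couples it to AMP-activated kinase. Insulin and IGF1 bind the receptor kinases INSR and IGF1R, which hand the signal to PI3K and AKT through the adaptors IRS1 and IRS2, while IGF2R takes IGF2 into the cell for degradation.

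The tumors were deeply sequenced, with 47199949 to 61655287 counts each. Melanocyte markers were abundant in all 16 tumors, with no 0 for any of the 8 markers and summed levels of 11264 to 27992 CPM (counts scaled to a common library size). The sums differed by group, at 19022 to 24147 CPM in lean pre-therapy and 24228 to 27992 in lean ETS tumors. Obese tumors had 11621 to 15867 CPM before therapy and 11264 to 26648 after ETS. Before therapy 4 of the 8 were called lower in obese tumors by the test described below (12.9% of all tested genes). Host cells were present too. Macrophage markers summed to 962 ± 400.2 CPM in lean pre-therapy tumors, 240.3 ± 182 in lean ETS, 132 ± 96.3 in obese pre-therapy and 641 ± 313 in obese ETS (mean ± SD, n = 4 each). In these bulk tumors, fewer cells of a type and less RNA per cell cannot be told apart.

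Per transcript length, the adiponectin receptors led the set. In TPM, which scales counts to transcript length and library, Adipor1 had a median of 126 over the 16 tumors, with a range of 107 to 159. Adipor2 followed at 57.4 (43.0 to 68.8) and Igf2r at 38.1 (18.5 to 67.1). Adipor1 exceeded Adipor2 in 16 of 16 tumors, and Adipor2 exceeded Igf2r in 14 of 16.

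Socs3 had a median of 12.8 TPM and Insr of 7.33 TPM, in that order in 16 of 16 tumors. Irs2 at 2.82 TPM and Igf1r at 2.78 TPM did not differ beyond their spread, since Irs2 was the higher in 7 of 16 tumors. The same held for Irs1 at 1.29 TPM and Igf1 at 1.03 TPM, with Irs1 the higher in 7 of 16. Lepr, the leptin receptor gene, was the lowest at 0.191 TPM, from 4 to 58 counts per tumor. These values are per gene and do not separate its transcript forms. The plot of TPM by gene shows this order and the spread within it.

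**Figure D1:**
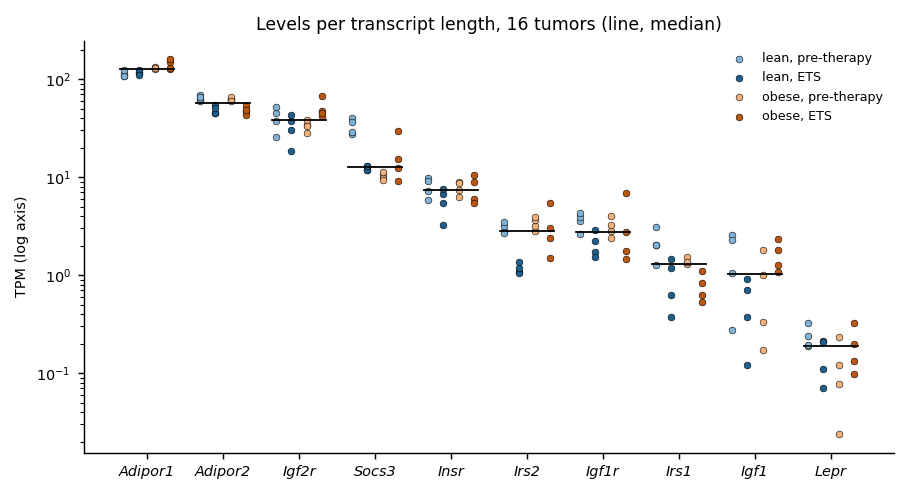
TPM on a log axis for each of the 10 genes, with 1 point per tumor (16 tumors, colored by group) and a line at the median. The medians run from 126 TPM for Adipor1 to 0.191 TPM for Lepr, and only Adipor1 has a range that does not overlap the next gene's.

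With ETS, lean tumors had higher Adipor1 and lower Irs1, Irs2 and Socs3, whereas obese tumors had higher Igf2r and Socs3 and lower Adipor2. No gene of the set was called in the same direction with ETS in both hosts. By the test of the difference itself, Socs3 alone had unlike ETS effects in lean and obese hosts. Before therapy, Socs3 was lower and Adipor1 higher in obese tumors, and after ETS, Irs2 was higher in obese tumors. Insr, Igf1r, Igf1 and Lepr were called in no comparison. A gene was called at an adjusted p under 0.05 by edgeR's quasi-likelihood test, which gives all adjusted p values and standard errors (SE) here unless another tool is named, adjusted over all 16209 genes by the Benjamini-Hochberg method.

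The share of the set that was called lay below that of all genes in 4 of the 5 comparisons. Since 1 gene is 10% of the set, these shares are too coarse to set it apart from all genes. In lean tumors, 4 of 10 genes were called with ETS, where 43.8% of all tested genes were called. Of the set 1 was higher and 3 were lower, against 21.0% and 22.8% of all genes, and the median log2 fold change was -0.33 for the set and -0.01 for all genes. In obese tumors 3 of 10 were called against 40.2% of all genes, 2 of them higher and 1 lower (21.2% and 19.0% of all genes), with a median of 0.13 for the set and 0.01 for all genes. The lean ETS effect differed from the obese ETS effect for 1 of 10 against 16.4%, with 0 higher and 1 lower against 6.35% and 10.1%. Obese and lean tumors differed before therapy for 2 of 10 against 26.4%, with 1 higher and 1 lower in the obese against 13.5% and 12.9%. After ETS they differed for 1 of 10 against 5.58%, with 1 higher and 0 lower against 3.28% and 2.30%.

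**Figure D2:**
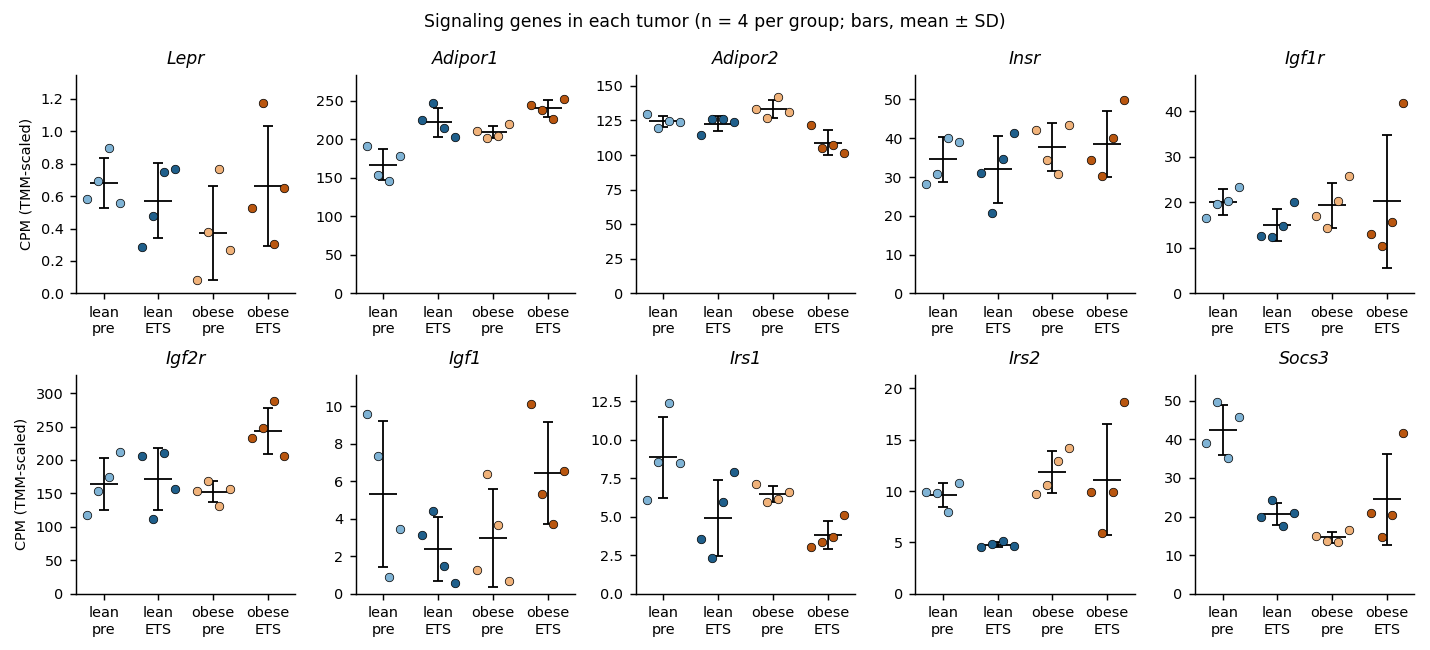
TMM-scaled CPM of each gene in each of the 16 tumors, in 4 groups of 4, with the mean and SD as bars and each axis starting at 0. Socs3 is highest on average in the lean pre-therapy tumors, Irs2 is lowest in the 4 lean ETS tumors, and Igf2r is highest on average in the obese ETS tumors.

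Lepr had the fewest counts of the set. Its CPM was 0.581, 0.692, 0.897 and 0.556 in lean pre-therapy tumors 1 to 4, and 0.0827, 0.379, 0.770 and 0.265 in obese pre-therapy tumors 1 to 4. Lean ETS tumors 1 to 4 were at 0.285, 0.479, 0.752 and 0.770, and obese ETS tumors at 0.526, 1.17, 0.303 and 0.648. All 4 groups overlapped. With ETS its log2 fold change was -0.25 (SE 0.49, adjusted p = 0.704) in lean tumors and 0.79 (SE 0.51, adjusted p = 0.230) in obese tumors, and neither was called. Single tumors moved the obese value, which was 0.37 without obese ETS tumor 2 (adjusted p = 0.613), 0.47 without obese pre-therapy tumor 1 (adjusted p = 0.451) and 1.43 without obese pre-therapy tumor 3 (adjusted p = 0.0484), the one fit of 16 in which it was called.

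Adipor1, which couples adiponectin to AMP-activated kinase, rose with ETS in lean tumors. Its CPM was 191, 154, 146 and 178 in lean pre-therapy tumors 1 to 4, and 225, 247, 215 and 203 in lean ETS tumors. Each of the 4 lean ETS tumors lay above all 4 lean pre-therapy tumors. The rise was 1.33-fold, a log2 fold change of 0.41 (SE 0.09, adjusted p = 0.00213).

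In obese tumors Adipor1 was already at 210, 202, 205 and 220 CPM before therapy, which was 1.25-fold the lean level (log2 difference 0.32, SE 0.09, adjusted p = 0.0146). Both pre-therapy groups were apart, with the lowest obese tumor above the highest lean one. This call was lost without lean pre-therapy tumor 2 (adjusted p = 0.050) or tumor 3 (adjusted p = 0.0510). After ETS the obese tumors were at 245, 238, 227 and 253 CPM, a log2 fold change of 0.20 that was not called (SE 0.09, adjusted p = 0.0847), and the lean and obese effects did not differ by test (difference 0.21, SE 0.13, adjusted p = 0.284).

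The size of the Adipor1 change depended on the scale. On log2(TPM + 1), tested with limma, Adipor1 changed by 0.04 with ETS in lean tumors (adjusted p = 0.683). On that scale the median of all genes moved by -0.28, and relative to that median Adipor1 was at 0.31, compared with 0.42 on the count scale.

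Adipor2, the second adiponectin receptor, fell in obese tumors. It was at 133, 127, 142 and 131 CPM in obese pre-therapy tumors 1 to 4 and at 122, 105, 107 and 102 in obese ETS tumors, and these groups did not overlap. The fall was 1.22-fold (log2 fold change -0.29, SE 0.07, adjusted p = 0.00443). Lean tumors were at 119 to 130 CPM before therapy and at 114 to 126 after ETS, with a log2 fold change of -0.02 (SE 0.07, adjusted p = 0.828). The difference of both effects was 0.27 (SE 0.10, adjusted p = 0.0734) and was not called. By limma on log2(TPM + 1), where the median of all genes was -0.28 in lean tumors, Adipor2 changed by -0.39 in lean tumors (adjusted p = 0.00138), or by -0.11 relative to that median.

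Around both receptors, 11 of 12 genes of the adiponectin arm were tested. The adaptor that binds the receptors, Appl1, fell with ETS in each host, with a log2 fold change of -0.39 in the lean (adjusted p = 0.0249) and -0.44 in the obese (adjusted p = 0.0164). In lean tumors the kinase subunit Prkag1 was the other gene called (0.43, adjusted p = 0.00340). In obese tumors T-cadherin, Cdh13, which binds adiponectin multimers, rose by 1.13 (adjusted p = 0.00289) and Camkk2, a kinase upstream of AMP-activated kinase, by 0.35 (adjusted p = 0.0296). Before therapy, Prkab2, Prkaa2 and Appl2 were higher in obese tumors by 0.99, 0.56 and 0.58 (adjusted p = 0.0154, 0.0158 and 0.00956), and Prkab1 was lower by 0.26 on the log2 scale, as a difference of -0.26 (adjusted p = 0.0306). In the 16 fits that each left out 1 tumor, the Appl1 call was lost in 3 for each host, that of Camkk2 in 5 and that of Prkab1 in 5, while those of Prkab2 and Prkaa2 were lost without obese pre-therapy tumor 4 (adjusted p = 0.0549 and 0.0636).

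Insr, the insulin receptor, stayed between 20.8 and 49.8 CPM in all 16 tumors. The group means were 34.6 ± 5.88 CPM in lean pre-therapy, 32.0 ± 8.59 in lean ETS, 37.7 ± 6.14 in obese pre-therapy and 38.6 ± 8.51 in obese ETS tumors. Every pair of groups overlapped. The log2 fold change with ETS was -0.11 in lean (SE 0.20, adjusted p = 0.677) and 0.03 in obese tumors (SE 0.20, adjusted p = 0.913).

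Igf1r, the receptor kinase for IGF1, was also without a called change. It was at 16.5, 19.7, 20.4 and 23.4 CPM in lean pre-therapy tumors 1 to 4 and at 12.7, 12.3, 14.8 and 20.01 in lean ETS tumors. In obese tumors it was at 17.0, 14.3, 20.3 and 25.8 CPM before therapy and at 12.9, 10.3, 15.7 and 41.8 after ETS. Obese ETS tumor 4 stood above the other 15 tumors. The log2 fold change with ETS in obese tumors was 0.06 (SE 0.34, adjusted p = 0.906) with that tumor and -0.57 (adjusted p = 0.0604) without it. In lean tumors it was -0.42 (SE 0.34, adjusted p = 0.340). Gm51488 and Gm51487 overlap Igf1r in the annotation, and their reads could not be told apart from its own.

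Igf2r, the scavenger receptor for IGF2, rose with ETS in obese tumors. It was at 154, 168, 131 and 156 CPM in obese pre-therapy tumors 1 to 4 and at 233, 247, 289 and 206 in obese ETS tumors. The groups did not overlap, and the rise was 1.60-fold (log2 fold change 0.68, SE 0.19, adjusted p = 0.0125). By limma on log2(TPM + 1) the rise was 0.57 (adjusted p = 0.0801).

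Lean tumors spread more widely for Igf2r, at 118, 153, 174 and 212 CPM before therapy and 206, 112, 210 and 157 after ETS. Their log2 fold change was 0.06 (SE 0.19, adjusted p = 0.820). The lean and obese effects differed by -0.62 (SE 0.27, adjusted p = 0.140), which was not called. Igf2r lies on chromosome 17 at 12682406 to 12769706 (mm10), where the antisense transcript Airn overlaps it, and reads from the pair were not separated here.

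Of the ligands made outside the tumor cells, insulin RNA was not detected, and adipokine RNA was low in most tumors but not in all. Ins1 and Ins2, the insulin genes, had 0 counts in all 16 tumors. Igf2 had 0 to 50 counts per tumor, at most 1.03 CPM. Lep had 0 counts in 5 tumors, 4 of them the lean ETS tumors, and so was not tested.

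Lep and Adipoq were highest in the same obese tumors. Lep was at 0.124, 10.7, 1.09 and 0.141 CPM in obese pre-therapy tumors 1 to 4 and at 4.86, 5.70, 6.50 and 0.140 in obese ETS tumors, and at most 0.277 in lean tumors. Adipoq, which encodes adiponectin, was at 0, 5.30, 0.603 and 0.212 CPM and at 5.13, 5.44, 5.32 and 0.140 CPM in those obese tumors. Lean tumors had at most 0.499 CPM of Adipoq. In the 4 highest tumors, obese pre-therapy tumor 2 and obese ETS tumors 1 to 3, Lep was at 6.68, 2.43, 2.98 and 4.13 TPM and Adipoq at 8.75, 6.77, 7.51 and 8.95 TPM, where the medians over the 16 tumors were 7.33 TPM for Insr and 2.82 TPM for Irs2. The ob allele is a nonsense mutation that leaves a transcript, so the level of Lep RNA does not check the genotype.

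Both genes are defining markers of fat cells. The 10 adipocyte markers, which include Lep and Adipoq, summed to 16.2 to 37.0 CPM in lean pre-therapy and 11.5 to 27.8 in lean ETS tumors. In obese tumors they summed to 17.9 to 131 CPM before therapy and 73.2 to 287 after ETS. Fabp4 made up most of the mean sums in these 4 groups, at 16.1 of 25.7, 11.8 of 18.4, 40.3 of 61.0 and 117 of 165 CPM. In obese ETS tumor 4 the sum was 73.2 CPM, where Lep and Adipoq were each at 0.140 CPM. The part of fat cells in the levels of Lep and Adipoq was not tested.

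Igf1, the ligand of IGF1R, was at 9.60, 7.36, 0.897 and 3.46 CPM in lean pre-therapy tumors 1 to 4 and at 3.12, 4.41, 1.49 and 0.543 in lean ETS tumors. In obese tumors it was at 1.24, 6.38, 3.68 and 0.653 CPM before therapy and at 10.1, 5.33, 3.71 and 6.53 after ETS. Tumors of 1 group differed by up to 10.7-fold, and all groups overlapped. The log2 fold change with ETS was -1.16 in lean (SE 0.75, adjusted p = 0.222) and 1.10 in obese tumors (SE 0.75, adjusted p = 0.253), and the difference of -2.26 (SE 1.06) had an unadjusted p of 0.0487 and an adjusted p of 0.164. Igf1os overlaps the gene in the annotation.

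With ETS, the mean sums of fibroblast, macrophage and endothelial markers moved the same way as the group means of Igf1. So did those of adipocyte markers (25.7 to 18.4 CPM in lean and 61.0 to 165 in obese tumors). T and NK cell markers (39.3 to 1.30 and 0.766 to 1.94) and neutrophil markers (1.37 to 1.03 and 5.55 to 6.81) did too. The 8 fibroblast markers summed to 1461 ± 813 CPM in lean pre-therapy, 427 ± 224 in lean ETS, 445 ± 236 in obese pre-therapy and 2477 ± 2381 in obese ETS tumors. Igf1 had means of 5.33, 2.39, 2.99 and 6.42 CPM in these groups. Of the 8 fibroblast markers, 4 were called lower with ETS in lean hosts (22.8% of all tested genes) and 7 higher in obese hosts (21.2%). Macrophage sums had means of 962, 240.3, 132 and 641 CPM in the same order of groups, and endothelial sums 153, 125, 89.7 and 182 CPM. Obese ETS tumor 4 had 5946 CPM of fibroblast markers and 6.53 CPM of Igf1, and tumor 1 of that group had 2102 and 10.1 CPM. The part of any of these cells in Igf1 was not tested.

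Of 17 genes listed as insulin and IGF ligands and binding proteins, 8 were tested. Igfbp7, which encodes a secreted IGF-binding protein-related factor, went in opposite directions. It fell by 0.73 on the log2 scale in lean tumors (adjusted p = 0.0297), from 37.8 to 63.5 CPM before therapy to 24.6 to 39.5 after ETS, and rose by 1.28 in obese tumors (adjusted p = 0.00143). The effects differed by -2.01 (SE 0.36, adjusted p = 0.00150). The lean call was lost in 5 of the 16 fits that left out 1 tumor, and the difference was called in all 16.

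Endothelial markers had a like pattern, as had the mean sums of macrophage and fibroblast markers. With ETS the mean sums of adipocyte, neutrophil, and T and NK cell markers also fell in lean and rose in obese tumors. The 8 endothelial markers summed to 135 to 168 CPM in lean pre-therapy and 101.2 to 133 in lean ETS tumors. In obese tumors they summed to 69.9 to 115 CPM before therapy and 114 to 306 after ETS. With ETS, 6 of the 8 were called higher in obese hosts (21.2% of all tested genes) and 1, Kdr, lower in lean hosts (22.8%). Before therapy 3 were called lower in obese tumors (12.9% of all tested genes). The part of any of these cells in Igfbp7 was not tested.

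Igfbp5 fell by 2.62 in lean tumors (adjusted p = 0.0280), a call lost in 4 of the 16 fits. Igfbp6 was at 0.331, 1.62, 0.352 and 0.812 CPM in obese pre-therapy tumors 1 to 4 and at 3.499, 3.81, 0.940 and 10.2 in obese ETS tumors, and the groups overlapped. It rose by 2.57 (adjusted p = 0.0436), which was lost in 8 of the 16 fits and fell to 1.82 without obese ETS tumor 4 (adjusted p = 0.135). The ETS effects of Igfbp5 and Igfbp6 differed by -4.62 and -4.80 (adjusted p = 0.0211 and 0.0232), the latter not without obese pre-therapy tumor 3 (adjusted p = 0.0514).

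In both hosts Igfals, which encodes the acid-labile subunit that carries IGFs in blood, rose with ETS, by 1.98 in lean and 2.004 in obese tumors (adjusted p = 0.0276 and 0.0279) at a mean of 0.406 CPM, and each call was lost in 5 of the 16 fits. Igfbp4 rose in lean tumors by 0.43 (adjusted p = 0.00620). Igfbp3, at a mean of 112 CPM, was called in neither host (0.34 and 0.69, adjusted p = 0.394 and 0.0952).

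**Figure D3:**
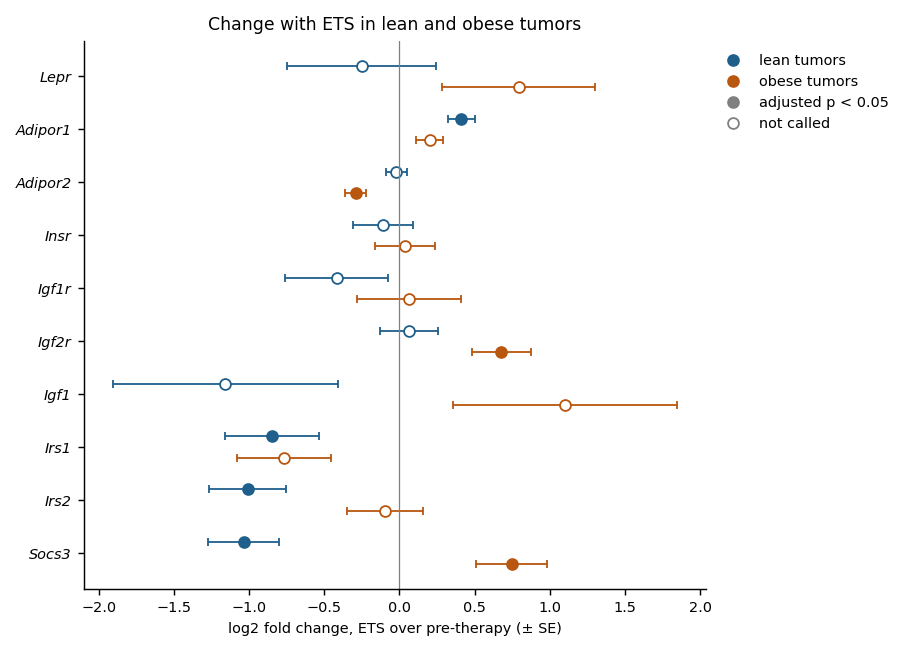
Log2 fold change with ETS (x axis, ± SE) for each of the 10 genes in lean and obese tumors, with filled points at an adjusted p under 0.05. Socs3 is filled on both sides of 0, at -1.03 in lean and 0.75 in obese tumors, while Irs1 lies at -0.85 and -0.77.

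Of the insulin receptor substrates, Irs2 fell in lean tumors and had no called change in obese ones. Its CPM was 9.93, 9.84, 7.99 and 10.8 in lean pre-therapy tumors 1 to 4 and 4.51, 4.85, 5.14 and 4.66 in lean ETS tumors. The groups did not overlap, and the lean ETS tumors were tightly grouped (4.79 ± 0.272, n = 4). Irs2 fell by 1.01 on the log2 scale (SE 0.26, adjusted p = 0.00550), which was 2.01-fold.

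In obese tumors Irs2 was at 9.72, 10.6, 12.9 and 14.2 CPM before therapy and at 9.94, 5.93, 9.86 and 18.7 after ETS. The log2 fold change was -0.10 (SE 0.25, adjusted p = 0.795). It was -0.46 without obese ETS tumor 4 and 0.11 without obese ETS tumor 2, and was called in 0 of the 16 fits that left out 1 tumor. After ETS it was therefore 2.32-fold higher in obese than in lean tumors (log2 difference 1.21, SE 0.26, adjusted p = 0.0186), with all 4 obese tumors above all 4 lean ones. This call was lost without lean ETS tumor 4 (1.20, adjusted p = 0.0574). The difference of the ETS effects was -0.91 (SE 0.36), with an unadjusted p of 0.0214 and an adjusted p of 0.0944, and was called only without obese ETS tumor 2 among the fits that left out 1 tumor (-1.12, adjusted p = 0.0185). The annotated transcript 9530052E02Rik overlaps Irs2.

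Irs1 was lower after ETS in both hosts, with a call in lean tumors. It was at 6.06, 8.53, 12.4 and 8.47 CPM in lean pre-therapy tumors 1 to 4 and at 3.55, 2.32, 5.92 and 7.88 in lean ETS tumors, and these groups overlapped. The log2 fold change was -0.85 (SE 0.31, adjusted p = 0.0373). The call held in 11 of 16 fits that left out 1 tumor and was lost without lean pre-therapy tumor 2, 3 or 4 (adjusted p = 0.0599, 0.130 and 0.0586) and without lean ETS tumor 1 or 2 (adjusted p = 0.110 and 0.101).

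In obese tumors Irs1 was at 7.15, 5.96, 6.18 and 6.62 CPM before therapy and at 3.05, 3.38, 3.67 and 5.11 after ETS, which did not overlap. The log2 fold change was -0.77 (SE 0.31, adjusted p = 0.0614). The lean and obese effects lay close together, with a difference of -0.08 and an SE of 0.44 (adjusted p = 0.922).

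The starts of both adaptor genes held CAAAACA, a core of the insulin response elements that FOXO factors bind. The RefSeq promoter table (GRCm38.p6, 250 bases before to 50 after each start) had entries for 9 of the 10 genes, and CAAAACA on either strand was found in 6.28% of all 32851 windows. The stretches are shown because Irs1 and Irs2 are the members that insulin signaling feeds through, and the capitals mark the match, read here on the strand of the gene as TGTTTTG. The first Irs1 stretch lies at chr1:82291534-82291560, 111 bases before the start, the second at chr1:82291455-82291481, 32 bases before it, and that of Irs2 at chr8:11008950-11008976, 37 bases before it, all on the minus strand.
Irs1, first: ctccgtcacgTGTTTTGctcctctgga
Irs1, second: agccgccgctTGTTTTGgttggggctc
Irs2: agtcacgtgtTGTTTTGctcttagttc
Of the other members, Lepr held CAAAACA as well, in its second window, 114 bases before the start. A further FOXO pattern, GTAAACA, was searched too and was found in 3.65% of all windows. The second window of Adipor1 held it at base 37 counted from the start, and that of Adipor2 172 bases before the start. Irs1 and Irs2 did not hold it. A match of these letters is a description of the window and not a measured site.

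Beyond IRS1 and IRS2, 11 of 14 receptor adaptor genes were tested. Shc3, which links receptor kinases to RAS, rose in lean tumors by 1.80 (SE 0.16, adjusted p = 2.86e-06) and in obese tumors by 0.96 (SE 0.16, adjusted p = 0.000374), and the effects differed by 0.84 (adjusted p = 0.0169). Shc1 rose by 0.87 and 0.25 (adjusted p = 8.26e-06 and 0.0370), with a difference of 0.62 (adjusted p = 0.00369), and its obese call was lost in 5 of the 16 fits that left out 1 tumor. Gab1 rose in both hosts by 0.59 and 0.70 (adjusted p = 0.00652 and 0.00255).

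The adaptors that restrain the insulin receptor behaved differently from each other. Grb14 was higher before therapy in obese tumors by 1.37 (SE 0.21, adjusted p = 0.000229), at 2.65, 1.71, 2.63 and 2.77 CPM against 0.763 to 1.22 in lean tumors. With ETS it rose in lean tumors by 0.59 and fell in obese tumors by 0.67 (adjusted p = 0.0297 and 0.0173), and the effects differed by 1.26 (adjusted p = 0.00781). The lean rise was lost in 6 of the 16 fits and the obese fall without obese pre-therapy tumor 4 (adjusted p = 0.0510).

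Grb10 fell in lean tumors by 1.29 (adjusted p = 0.0243), a call lost in 3 of the 16 fits, and was at 1.08 in obese tumors (adjusted p = 0.0559). After ETS it was at 4.19, 3.62, 3.15 and 2.49 CPM in lean tumors 1 to 4 and at 7.52, 7.23, 5.07 and 21.9 in obese tumors, which did not overlap. The obese tumors were 3.10-fold higher (adjusted p = 0.0423), but 1.97-fold without obese ETS tumor 4 (adjusted p = 0.151), and the call was lost in 8 of the 16 fits.

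All 28 genes listed for PI3K, AKT and mTOR were tested. In lean tumors 11 were called with ETS, 4 higher and 7 lower, which was 39.3% of the list against 43.8% of all tested genes. The catalytic subunits Pik3cb and Pik3cd fell by 0.72 and 0.76 (adjusted p = 0.000128 and 0.000504) and the regulatory subunit Pik3r1 by 0.62 (adjusted p = 0.00131), whereas the regulatory subunits Pik3r2 and Pik3r3 rose by 0.61 and 1.05 (adjusted p = 0.000719 and 0.00243). For Pik3cb, Pik3cd and Pik3r1 the lean effect was below the obese one, by -0.50, -0.84 and -0.56 (adjusted p = 0.0330, 0.00710 and 0.0416). The differences for Pik3cb and Pik3r1 were lost in 8 and 11 of the 16 fits that left out 1 tumor.

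In obese tumors 9 of these 28 were called with ETS, 4 higher and 5 lower, which was 32.1% against 40.2% of all tested genes. The PI3K inhibitor Pik3ip1 rose by 0.93 (adjusted p = 0.00176), and Tsc2 and Mtor rose by 0.47 and 0.31 (adjusted p = 0.00186 and 0.0238). Rps6kb1, the S6 kinase downstream of mTOR, fell in both hosts, by 0.43 in lean and 0.50 in obese tumors (adjusted p = 0.00279 and 0.00123), as did Pdpk1, by 0.45 and 0.37 (adjusted p = 0.0118 and 0.0363). The obese calls of Mtor and Pdpk1 were lost in 4 and 6 of the 16 fits. Akt1 and Akt2 were called in no comparison.

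Between hosts, 6 of the 28 PI3K, AKT and mTOR genes differed before therapy (21.4% against 26.4% of all tested genes) and 4 after ETS (14.3% against 5.58%). Eif4ebp1, the translation repressor that mTOR inactivates, and Foxo3, a transcription factor that AKT inhibits, were higher in obese tumors before therapy by 0.93 and 0.87 (adjusted p = 0.00668 and 0.00208). Foxo3 rose with ETS in lean tumors by 0.59 (adjusted p = 0.0128), and its effects differed by 0.76 (adjusted p = 0.0455), which was lost in 14 of the 16 fits that left out 1 tumor. Deptor, an mTOR inhibitor, was higher in obese tumors before and after therapy, by 0.52 and 0.63 (adjusted p = 0.0140 and 0.0239), the latter lost in 4 of those fits. After ETS Foxo4 was lower in obese tumors, as a difference of -0.52 (adjusted p = 0.0156).

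**Figure D4:**
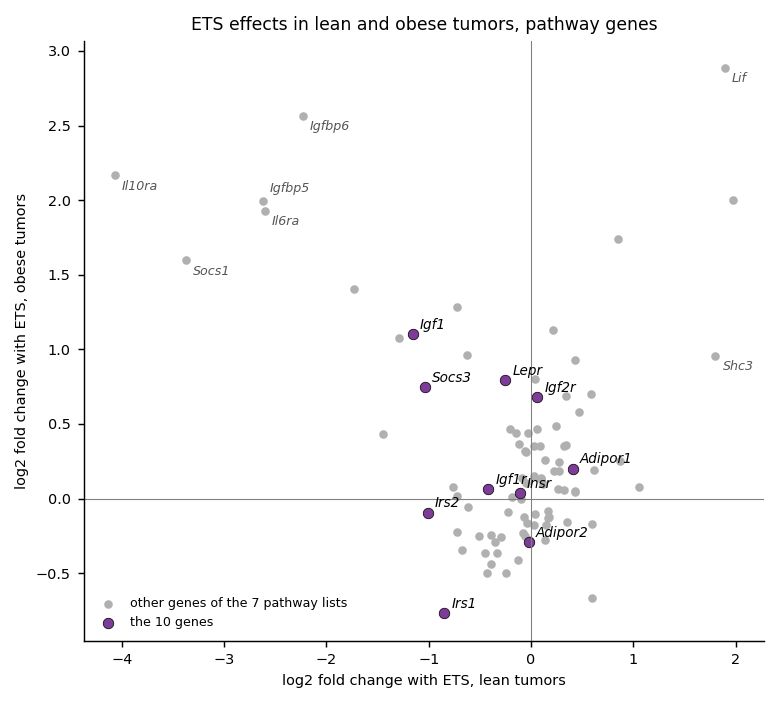
Log2 fold change with ETS in lean (x axis) and obese tumors (y axis) for the 10 genes (purple) and the 82 tested genes of the 7 pathway lists (grey). Socs3 lies in the upper left part with Igfbp6, Il10ra, Il6ra and Socs1, and Lif lies at the upper right at 1.90 and 2.89.

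Socs3 was the one gene of the set whose lean and obese ETS effects differed by test. It was at 39.1, 49.7, 35.1 and 45.8 CPM in lean pre-therapy tumors 1 to 4 and at 19.8, 24.4, 17.7 and 21.03 in lean ETS tumors. Obese tumors were at 14.97, 13.5, 13.4 and 16.5 CPM before therapy and at 20.9, 14.8, 20.4 and 41.7 after ETS. All 4 lean pre-therapy tumors lay above all lean ETS and all obese pre-therapy tumors, and obese ETS tumor 4 lay within the lean pre-therapy range.

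Socs3 fell with ETS in lean tumors by 1.03 on the log2 scale (SE 0.24, adjusted p = 0.00292), which was 2.05-fold. Before therapy it was 2.91-fold lower in obese than in lean tumors, a log2 difference of -1.54 (SE 0.24, adjusted p = 0.000283). Both calls held in 16 of 16 fits that left out 1 tumor, as did the difference of the ETS effects, which was -1.78 (SE 0.33, adjusted p = 0.00204) and ranged from -1.96 to -1.43 over those fits.

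In obese tumors the Socs3 rise rested on few tumors. It was 1.68-fold (log2 fold change 0.75, SE 0.24, adjusted p = 0.0211), and obese ETS tumor 2 lay within the obese pre-therapy range. Without obese ETS tumor 4 the log2 fold change was 0.37 (adjusted p = 0.0661), and without obese pre-therapy tumor 3 it was 0.71 (adjusted p = 0.0572). By limma on log2(TPM + 1) it was 0.53 (adjusted p = 0.0976). After ETS the obese and lean tumors differed by 0.24 (SE 0.23, adjusted p = 0.553), and by -0.14 without obese ETS tumor 4 (adjusted p = 0.726).

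SOCS3 is a classical STAT3 target, and the window at the Socs3 start held the STAT palindrome TTCNNNGAA. The stretch is shown because Socs3 is the member with the clearest change. It lies at chr11:117969502-117969530 on the minus strand, 154 bases before the start given by the RefSeq table (GRCm38.p6), and the capitals mark the match.
Socs3: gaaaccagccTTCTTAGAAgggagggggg
The same 9-base pattern was found in 8.30% of the 32851 promoter windows and overlapped no other motif searched. Of the other 8 members with a window, none held it.

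Socs1, the family member that inhibits JAK kinases directly, had the Socs3 pattern with a larger size. It was at 10.3, 18.0, 11.3 and 17.3 CPM in lean pre-therapy tumors 1 to 4, at 1.25 to 1.52 in lean ETS, at 0.159 to 0.678 in obese pre-therapy and at 1.28 to 1.72 in obese ETS tumors. The log2 fold change with ETS was -3.38 in lean (SE 0.32, adjusted p = 4.75e-06) and 1.60 in obese tumors (SE 0.33, adjusted p = 0.00162), and the effects differed by -4.97 (SE 0.45, adjusted p = 1.07e-05). Before therapy Socs1 was lower in obese tumors, by -4.91 (SE 0.35, adjusted p = 2.91e-07).

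Other family members moved less. Before therapy Socs2, which restrains growth hormone signaling, and Cish, which restrains cytokine receptors, were lower in obese tumors (-0.85 and -0.71, adjusted p = 0.00382 and 0.0212). With ETS in lean tumors Socs4 fell by 0.39 and Socs5 rose by 0.27 (adjusted p = 0.00691 and 0.0107), and after ETS Socs7 was lower in obese tumors (-0.37, adjusted p = 0.0343). Socs6 was called in no comparison. The calls of Cish, Socs5 and Socs7 were lost in 4, 1 and 6 of the 16 fits that left out 1 tumor.

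Upstream of SOCS3, 8 of 9 leptin-arm genes were tested. Jak2, the kinase on LEPR, was at 49.0, 56.5, 55.4 and 54.5 CPM in lean pre-therapy tumors 1 to 4 and at 27.3 to 36.5 in the other 12 tumors. It fell with ETS in lean tumors by 0.72 (SE 0.09, adjusted p = 4.63e-05), was at 0.02 in obese tumors (adjusted p = 0.908), and its effects differed by -0.74 (SE 0.13, adjusted p = 0.00148). Before therapy it was lower in obese tumors by -0.77 (adjusted p = 3.48e-05).

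Stat3 and the phosphatase gene Ptpn1, which encodes PTP1B, rose with ETS in obese tumors, by 0.36 and 0.32 (adjusted p = 0.0381 and 0.0225), and both were lower in obese than in lean tumors before therapy (-0.44 and -0.36, adjusted p = 0.0230 and 0.0169). With 1 tumor left out, the Stat3 calls were lost in 5 and 4 of 16 fits and those of Ptpn1 in 3 and 1. Leprot, a small membrane protein gene at the Lepr locus, rose in obese tumors by 0.49 (adjusted p = 0.00958), and Ptpn2 fell by 0.50 (adjusted p = 0.00834).

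SOCS3 also restrains receptors of the IL6 family, and 9 of 14 genes of that list were tested. Il6ra was at 5.10, 5.78, 2.26 and 3.78 CPM in lean pre-therapy tumors 1 to 4, at 0.340 to 1.34 in lean ETS, at 0.371 to 1.40 in obese pre-therapy and at 1.63 to 3.98 in obese ETS tumors. It fell by 2.60 in lean tumors (adjusted p = 0.000778) and rose by 1.93 in obese tumors (adjusted p = 0.00579), and the effects differed by -4.53 (SE 0.69, adjusted p = 0.000445). Il10ra fell by 4.07 and rose by 2.17 (adjusted p = 0.000510 and 0.0211), with a difference of -6.24 (SE 0.99, adjusted p = 0.000620), and its obese rise was lost in 4 of the 16 fits that left out 1 tumor.

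Lif and Osmr, a ligand and a receptor of the same family, rose in both hosts. Lif was at 0.325 to 1.81 CPM in lean pre-therapy and 3.10 to 5.58 in lean ETS tumors (log2 fold change 1.90, adjusted p = 0.00816), and at 0.806 to 3.34 in obese pre-therapy and 7.45 to 24.3 in obese ETS tumors (2.89, adjusted p = 0.000740). Osmr rose by 0.85 and 1.74 (adjusted p = 0.00737 and 8.32e-05). The shared receptor subunit Il6st rose in obese tumors by 0.44 (adjusted p = 0.0186) and was at -0.03 in lean tumors (adjusted p = 0.890). The obese rise was 0.28 without obese ETS tumor 4 (adjusted p = 0.0574) and was also lost without obese pre-therapy tumor 3 or 4 (adjusted p = 0.0656 and 0.0510).

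**Figure D5:**
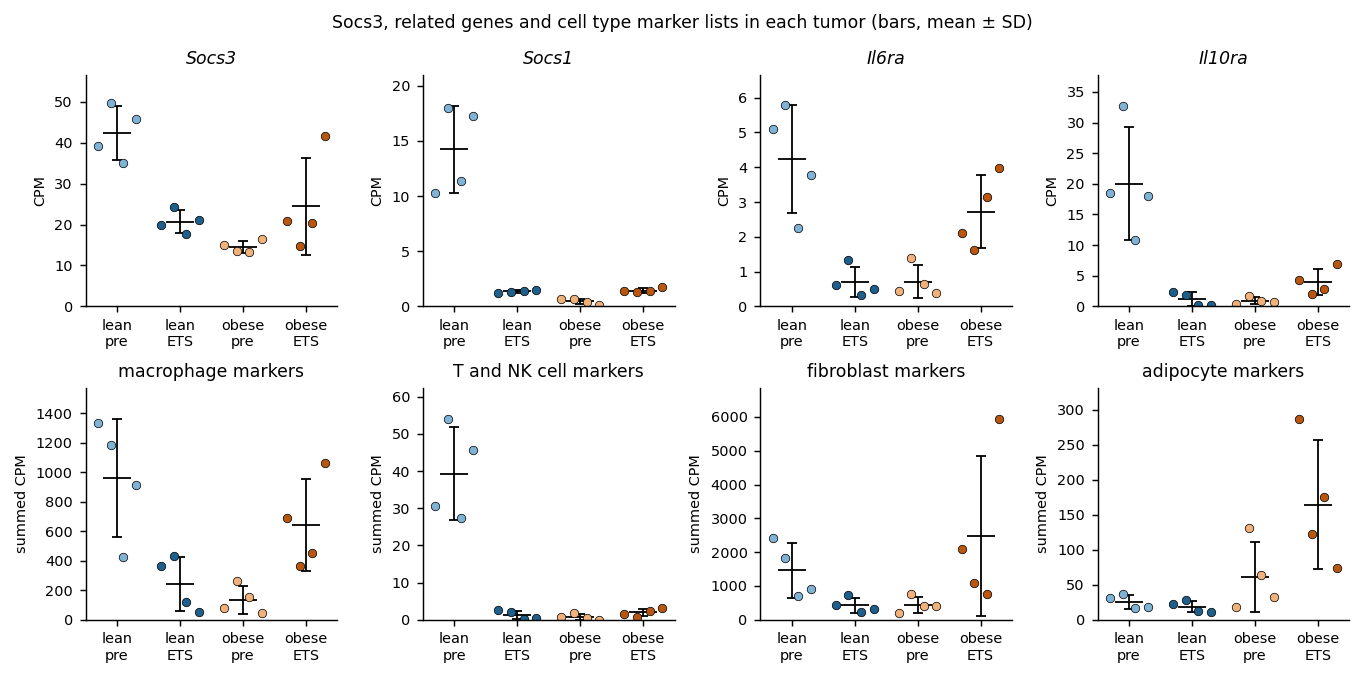
CPM of Socs3, Socs1, Il6ra and Il10ra (upper row) and summed CPM of the macrophage, T and NK cell, fibroblast and adipocyte marker lists (lower row) in each of the 16 tumors, with the mean and SD of each group of 4. Socs3 and Socs1 are highest on average in the lean pre-therapy tumors, where T and NK cell markers sum to 27.3 to 54.0 CPM against at most 3.06 in the other 12 tumors.

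With ETS the macrophage sum fell in lean and rose in obese tumors on average, as did Socs3, Socs1, Il6ra and Il10ra. Fibroblast, endothelial, adipocyte, and T and NK cell sums did so too. Neutrophil markers also did, but were higher in obese tumors, with mean sums of 1.37 CPM in lean pre-therapy and 1.03 in lean ETS tumors. Their mean sums were 5.55 CPM in obese pre-therapy and 6.81 in obese ETS tumors. The obese means rested on tumor 4 of each group (18.2 and 22.5 CPM). No T, NK or neutrophil marker was tested. The 10 T and NK cell markers summed to 27.3 to 54.0 CPM in lean pre-therapy tumors and to 0.0353 to 3.06 CPM in the other 12 tumors, and Cd3e had 0 counts in 7 of the 16. With ETS, 8 of the 10 macrophage markers were called lower in lean hosts (22.8% of all tested genes) and 8 higher in obese hosts (21.2%). Before therapy 9 were called lower in obese tumors (12.9% of all tested genes). The macrophage sum ranged from 422 to 1333 CPM in lean pre-therapy, 55.0 to 428 in lean ETS, 43.2 to 260.2 in obese pre-therapy and 363 to 1063 in obese ETS tumors. Jak2 was at 49.0 to 56.5 CPM in the lean pre-therapy tumors and at 27.3 to 36.5 CPM in the other 12 tumors. Its log2 fold change with ETS in obese tumors was 0.02. The part of these cells in the levels of Socs3 and the genes around it was not tested.

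Genes whose log2 CPM followed each member over the 16 tumors were ranked by Pearson's r among 13315 genes, as a measure of likeness only. Socs3 was followed most closely by C1rb, Arhgap45 and Fmnl1 (r = 0.958, 0.957 and 0.954) and Irs2 by Atf3, Tnfaip2 and Gadd45g (0.959, 0.924 and 0.920). For Irs1 they were Zbtb26, Foxn3 and Phlpp2 (0.960, 0.954 and 0.944) and for Igf1 they were Ccn5, B3galnt1 and Scn7a (0.926, 0.924 and 0.920).

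Among the receptors, Adipor1 was followed by Hk1, Endog and Castor1 (r = 0.967, 0.967 and 0.954) and Adipor2 by Arl6ip6, Ppp1cc and Sumo2 (0.922, 0.896 and 0.895). Igf2r was followed by Mtor, Adam10 and Itpripl1 (0.921, 0.887 and 0.869), Igf1r by Smad7, Ss18l1 and 9130008F23Rik (0.917, 0.898 and 0.875), and Insr by Lnpep, Afap1 and Cdh2 (0.892, 0.885 and 0.862). Lepr had the weakest, Gm5552, Mmp13 and Exo5 (0.743, 0.709 and 0.704). Each r rests on 16 tumors that fall into 4 groups.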

How the data were processed

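RNA was isolated from 16 tumors, 4 per group, and reads were mapped by the authors with HISAT2 2.1.0 on mm10 and quantified with StringTie 2.1.3b (versions per the submitters' processing notes). The library kit was strand-specific, and whether the counting used the strand is not given in the sources used here. As deposited, the counts are unnormalized whole numbers for each gene, which the authors took from StringTie. The deposited TPM values come from the same step, are scaled by the authors to transcript length and library, and served for levels between genes and as an alternative. The 16 FPKM columns were not used.

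As in the study's methods, 29568 genes with a 0 in any tumor were excluded. The remaining 16209 were scaled by TMM and tested with edgeR 4.0.16 (R 4.3.3) quasi-likelihood F tests on all 16 tumors with 1 mean per group, and p values were Benjamini-Hochberg adjusted over these genes for each of 5 comparisons. CPM values are TMM-scaled. SE was computed as the absolute log2 fold change over the square root of F. Alternatives used DESeq2 1.42.0, limma 3.58.1 on log2(TPM + 1), the edgeR exact test, other filters and scaling, a replicate block, the compared groups alone, and each tumor left out. The procedure was tested on simulated data.

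The genes, the pathway lists and the marker lists were chosen with earlier results of these data known. Named are all members, their ligands, the SOCS family, called genes of 7 pathway lists (for each comparison the 3 with the largest rise and the 3 with the largest fall at a mean of at least 1 CPM, and others to describe a list, chosen after their values were seen), and for each member the 3 genes with the highest r. Sequences come from the RefSeq promoter table (GRCm38.p6). Coordinates are mm10. Replicate libraries were distinct, since no pair of a group agreed within counting noise.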

Additional observations from a re-analysis of the deposited data

Results flagged for a closer look

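The ETS effect on Socs3 differed between lean and obese tumors by the interaction test. Socs3 fell by 1.03 in lean tumors and rose by 0.75 in obese tumors on the log2 scale, and the difference was -1.78 (SE 0.33, adjusted p = 0.00204, edgeR's quasi-likelihood test). All 4 lean ETS tumors were below all 4 lean pre-therapy tumors. In obese tumors 3 of 4 ETS tumors were above all 4 pre-therapy tumors. Without obese ETS tumor 4 the obese rise was 0.37 (adjusted p = 0.0661).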

How the results depend on the processing

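Of the 5 counts of called genes among the 10, 108 of 123 values under other settings stayed within 1.5 times the reported count. With a limit of 2-fold and an unadjusted p under 0.05 in place of the adjusted p, 2 genes were called with ETS in lean tumors, 0 in obese tumors, 2 for the difference of the effects and 1 before therapy. DESeq2 called 5 with ETS in obese tumors (adding Adipor1 and Irs1) and 2 for the difference (adding Adipor2), as did edgeR's filterByExpr with 2. limma on log2(TPM + 1) called 1 in obese tumors and 1 before therapy, and the fit of the compared groups alone called 0 after ETS, where Irs2 had an adjusted p of 0.0985 (66 of all genes were called at an adjusted p under 0.05 and 3352 at an unadjusted p under 0.05, against 904 and 4056 in the fit of all groups). With 1 tumor left out, the counts ranged from 3 to 4 in lean tumors, 3 to 4 in obese tumors, 1 to 2 for the difference, 1 to 2 before therapy and 0 to 1 after ETS. The number of all genes called after ETS moved to 2078 with DESeq2, 1571 with the exact test, 450 without a filter and 1683 with the replicate block. From 904 it moved to between 185 (without lean ETS tumor 4) and 1340 (without obese ETS tumor 2) with 1 tumor left out, and was 236 without lean ETS tumor 3 and 243 without obese ETS tumor 4. Irs1 with ETS in lean tumors was not called without a filter on low counts (adjusted p = 0.0695) or with the compared groups alone (0.0919), and Socs3 in obese tumors was not called with the compared groups alone (0.0678).

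Same-numbered tumors of different groups deviated together to varying degrees (correlations of -0.11 to 0.45). These values were not set against tumors of different numbers, so they cannot decide whether the numbers pair the tumors, and pairing was not tested. With the replicate block 4, 4, 1, 2 and 1 genes were called, adding Irs1 in obese tumors (-0.82, adjusted p = 0.0275), and Igf1r in obese tumors was at -0.079.

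Signs turned only where no call stood on either side. By limma on log2(TPM + 1), which called 1351 genes higher and 7281 lower with ETS in lean tumors against 3410 and 3689 on the counts, Adipor1 and Adipor2 were at -0.068 and -0.0067 for the difference, Adipor2 and Insr at -0.031 and -0.0077 before therapy, Insr and Igf1r at -0.058 and -0.12 in obese tumors, and Igf2r at -0.32 in lean tumors. The cause was not tested. With 1 tumor left out, Igf1r ranged from -0.70 to 0.13 for the difference, -0.57 to 0.28 in obese tumors, -0.20 to 0.65 after ETS and -0.21 to 0.073 before therapy, Igf2r from -0.069 to 0.21 in lean tumors and -0.24 to 0.036 before therapy, Insr from -0.29 to 0.0010 for the difference, -0.26 to 0.044 in lean and -0.11 to 0.14 in obese tumors, Irs1 from -0.40 to 0.14 for the difference, Irs2 from -0.46 to 0.11 in obese tumors, Lepr from -0.22 to 0.44 after ETS and Socs3 from -0.14 to 0.42 after ETS. Counts were lowest for Lepr, at 4 to 58 per tumor. Leaving out each tumor in turn was also tried for the pathway genes, a choice made after seeing the data, and 66 of their 117 calls held in all 16 fits (24 of 32 with ETS in lean and 16 of 33 in obese tumors, 11 of 16 for the difference, 14 of 27 before therapy and 1 of 9 after ETS).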

Other observations

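Obese ETS tumor 4 had the highest level among the 16 tumors of Insr (49.8 CPM), Igf1r (41.8 CPM) and Irs2 (18.7 CPM). In the same tumor Lif was at 24.3 CPM, Osm at 5.45 CPM and Grb10 at 21.9 CPM, each the highest of the 16. Fibroblast markers summed to 5946 CPM there and neutrophil markers to 22.5 CPM, while the neutrophil sum was at most 2.28 CPM in 14 of the other 15 tumors and 18.2 CPM in obese pre-therapy tumor 4.

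Skeletal muscle markers summed to over 100 CPM in 4 tumors, lean pre-therapy tumor 2 (189), lean ETS tumors 1 and 2 (355 and 209) and obese ETS tumor 2 (455). Irs1 was at 3.55 and 2.32 CPM in lean ETS tumors 1 and 2, below tumors 3 and 4 of that group (5.92 and 7.88 CPM). For Irs1, lean pre-therapy tumor 2 was at 8.53 CPM, above tumor 1 (6.06 CPM, muscle sum 2.62). It was below tumor 3 (12.4 CPM, muscle sum 1.39) and near tumor 4 (8.47 CPM, muscle sum 49.2). In obese ETS tumor 2 Irs1 was at 3.38 CPM, between tumors 1 and 3 (3.05 and 3.67 CPM, muscle sums 4.46 and 3.59). Obese ETS tumor 4 was at 5.11 CPM, with a muscle sum of 3.71. Any relation between Irs1 and the muscle sum was not tested.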
